A study of Homo sapiens with 65 samples.

Results

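The wild-type step from day 4.5 to day 7.5 sets the 3 WT libraries of day 7.5 against the 6 WT libraries of day 4.5, chosen by their titles from the genotype arm, and so covers 9 of the 65 libraries of the series. Each library holds the RNA of 8 pooled left-ventricular cardioids, small aggregates that form a chamber-like heart tissue by themselves, grown from WTC-11, an established human induced pluripotent stem cell line. All 9 libraries had the genotype WT and went through the same cardioid differentiation, with no gene knocked out and no hyaluronidase added. The labels call day 4.5 cells cardiac progenitors and day 7.5 cells cardiomyocytes. At day 4.5 the line named WT gave 2 libraries (R1 and R2), the line WT_TU gave 2 (R1 and R2), and the lines cl43_WT_UT and TNT2 gave 1 each; at day 7.5 there were WT_R1, WT_R2 and WT_TU_R2. From day 1.5 a first patterning medium held BMP4, FGF2, insulin, retinoic acid and an inhibitor of WNT secretion, another patterning medium followed up to day 4.5, and after that a cardiomyocyte differentiation medium, so day and medium cannot be told apart. For comparison, 3 untreated libraries at each of the same days came from the enzyme arm (lines named TNNI1, WT and TNNT2), and 6 and 3 libraries came from clones in which HAS2, a hyaluronan synthase gene, was knocked out (KO). The KO libraries were cl4_R1, cl4_R2, cl4_R3, cl14_R1, cl46_R1 and cl51_R1 at day 4.5, and cl4_R2, cl4_R3 and cl14_R1 at day 7.5. Clone cl4 thus gave several libraries of each day, and the n of KO counts libraries, not clones. Neither the untreated nor the KO set shares a library with the wild-type step.

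Between these stages a heart progenitor becomes a beating muscle cell. Cardiomyocytes assemble sarcomeres, in which myosin thick filaments pull on actin thin filaments anchored at the Z-disc, and link that machinery through the dystrophin complex to laminins of the basement membrane. Progenitors divide rapidly, carry remnants of the stem cell programme and are patterned by BMP, FGF, WNT and retinoic acid signals, and embryonic cardiomyocytes still divide while they contract.

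The libraries were small and not all alike. Library totals were between 1432869 and 3201280 counts. At day 4.5 the R1 libraries of WT and WT_TU stood apart: against the other 4, their counts differed 22.9 to 30.5 times more than counting error alone gives (a chi-square divided by its degrees of freedom), against 2.36 to 6.47 among those 4. They were also the deepest, with 3201280 and 2779101 counts against 1517055 to 1731246. TTN was at 3459 and 3527 CPM (counts of a gene in every 1e+06 counts of its library) in them and from 21834 to 34626 CPM in the others, while NKX2-5 was at 2169 and 1904 CPM against 359 to 484. The day 7.5 library WT_R1 did not stand apart in this way (4.27 and 4.89 times counting error from the other 2 of its day, which differed by 2.48). Counts are therefore also given without those R1 libraries, an alternative chosen after seeing the data. The labels say that conditions had biological replicates without tying each library to its own culture, so p-values measure the spread between libraries. For the wild-type step this spread is pooled over the 8 groups of all 41 libraries of the genotype arm, not taken from the 9 libraries alone.

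The cardiomyocyte label was checked against 10 markers, all of which were detected at both days in every library. Their summed level was from 28820 to 59080 CPM at day 4.5 (median 40360) and 55120, 64900 and 65920 CPM at day 7.5, so the highest day 4.5 library lay within the range of day 7.5. TTN had the most counts of the 10 (204263 at day 4.5 and 149453 at day 7.5) and was low in the R1 libraries of day 4.5. The sum and its range thus depend much on this gene. None of the 10 passed the test in either direction, and their median log2 fold change was 0.44, against −0.05 for all genes. With each line and R number as a block (the replicate block), 2 of the 10 were higher. Cardiac muscle genes were thus already abundant at the stage labelled progenitor. In pooled organoids, fewer cells of a type and less RNA per cell cannot be told apart, and this holds for every level below.

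Of 13797 genes tested, 372 (2.70%) differed between the days, 173 higher (1.25%) and 199 lower (1.44%) at day 7.5 (edgeR quasi-likelihood F-test, two-sided, Benjamini-Hochberg adjusted p under 0.05), and 1927 had an unadjusted p under 0.05. With the replicate block 752 genes passed, 380 higher and 372 lower, of which 352 were among the 372. Without both R1 libraries of day 4.5 the count was again 372, and 255 genes were shared with the first set. Leaving out a day 7.5 library cut it most, to 200 without WT_R1, 174 without WT_R2 and 138 without WT_TU_R2. The step before, from day 2.5 to day 4.5, had 4756 calls (34.5%). It uses the same day 4.5 libraries but compares 6 libraries with 6, where day 7.5 has 3, so the counts of both steps are not on equal terms. Among the 372, the ranges of the 2 days did not overlap for 163 of 173 higher and 177 of 199 lower genes. The sign was the same within the R1 and within the R2 libraries for 173 and 198. The test on these same libraries chose the genes, so both counts describe the calls and add no separate support. Protein-coding genes were 162 of the higher and 196 of the lower genes, and 12121 of the 13797 tested.

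Below, changes are log2 fold changes, day 7.5 minus day 4.5, with their standard errors (SE) from the edgeR fit, and p-values are adjusted over all genes tested.

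DMD, LAMA2 and PLXNA4 were higher in every day 7.5 library than in any of day 4.5. DMD (ENSG00000198947, chromosome X, 31097677 to 33339441 on GRCh38) encodes dystrophin, the rod that ties the cytoskeleton to the membrane. It was from 3.12 to 26.3 CPM (median 7.77) in the 6 libraries of day 4.5 and at 109, 158 and 242 CPM in WT_R1, WT_R2 and WT_TU_R2 of day 7.5. The ranges were far apart, with WT_TU_R2 the highest library of both days (at 26.3 CPM on day 4.5). The log2 fold change was 4.18 (SE 0.39, adjusted p = 5.16e-09), the lowest p of all genes named here. LAMA2 (chromosome 6, 128883141 to 129516569), the laminin chain to which the dystrophin complex binds in muscle, went from 5.93 to 28.2 CPM (median 14.3) to 105, 145 and 125 CPM (log2 fold change 3.04, SE 0.44, adjusted p = 2.46e-05). PLXNA4, a semaphorin co-receptor, went from 5.93 to 18.9 CPM (median 16) to 112, 139.6 and 180.4 CPM (log2 fold change 3.39, SE 0.45, adjusted p = 5.09e-06). For both genes every day 7.5 library was above every day 4.5 library.

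PRDM16 (chromosome 1, 3069168 to 3438621) encodes a zinc finger transcription factor needed for the compact wall of the ventricle. It was from 1.73 to 6.51 CPM (median 4.99) at day 4.5 and at 52.3, 57.9 and 48.5 CPM at day 7.5, the most even of these rises across libraries (log2 fold change 3.54, SE 0.41, adjusted p = 3.04e-07). HEY2 (chromosome 6, 125747664 to 125761269), a Notch target of the compact ventricular wall, was from 9.23 to 34.2 CPM (median 24) and then at 71.8, 72.6 and 93.1 CPM (log2 fold change 1.81, SE 0.33, adjusted p = 0.000863). These were the only 2 of 27 tested cardiac transcription factors that rose. GATA6, which acts in early heart progenitors, fell: from 67.6 to 93.1 CPM (median 81.1) at day 4.5 and 38, 48.9 and 32.3 CPM at day 7.5 (log2 fold change −0.99, SE 0.24, adjusted p = 0.0116), a call lost without day 7.5 WT_R1 or WT_TU_R2 (adjusted p up to 0.144). The median of the 27 was −0.36, with 10 positive and 17 negative.

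NKX2-5 and GATA4, core cardiac factors, had no call (log2 fold changes −0.68 and −0.64, adjusted p = 0.736 and 0.497). Both were highest in the R1 libraries of day 4.5, and without these their values were 0.56 and 0.06, of opposite sign. IRX4, a ventricular transcription factor outside the rule for named genes and picked after its values were seen, was at 90.3 and 51.1 CPM in the R1 libraries of day 4.5, from 6.59 to 15 CPM in the other 4, and at 147, 90 and 124 CPM at day 7.5. It missed the threshold over all libraries (log2 fold change 1.89, SE 0.64, adjusted p = 0.118), and passed it with the replicate block (adjusted p = 0.0323) and without the R1 libraries (adjusted p = 0.00219). ISL1, a second heart field factor named on the same terms, had −1.43 (adjusted p = 0.111), and 0.0116 without the R1 libraries.

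**Figure D1:**
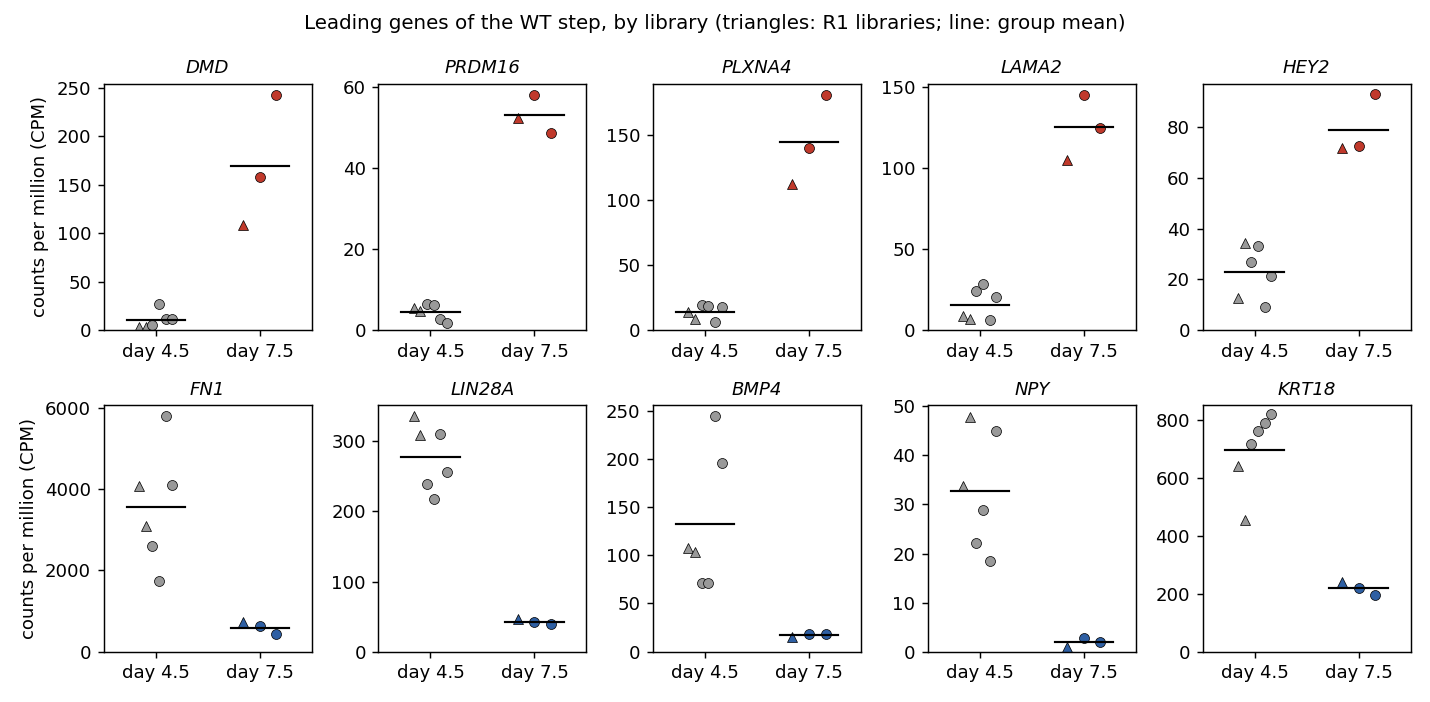
Level of 5 genes that rose (DMD, PRDM16, PLXNA4, LAMA2, HEY2) and 5 that fell (FN1, LIN28A, BMP4, NPY, KRT18) in each WT library of day 4.5 and day 7.5, in CPM on a linear axis. Each point is a library, triangles are R1 libraries and the line is the group mean; in all 10 genes the 3 libraries of day 7.5 lie outside the range of the 6 of day 4.5.

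Other leading rises were in genes nearly silent at day 4.5. SORCS3, a sorting receptor best known from neurons, was from 0 to 3.13 CPM and then at 21.6, 16.1 and 17.5 CPM (log2 fold change 4.34, SE 0.81, adjusted p = 0.00148). SPHKAP, a protein kinase A anchor found in heart, was from 0 to 2.64 and then at 11.8, 23 and 9.05 CPM (log2 fold change 4.10, SE 0.77, adjusted p = 0.00105). FAM13C went from 0.360 to 5.20 CPM up to 32.3, 38.4 and 40.1 CPM (log2 fold change 3.55, SE 0.71, adjusted p = 0.00213). In these 3 genes no day 7.5 library came near a day 4.5 library. IGFBP5, a secreted binder of insulin-like growth factors chosen after its values were seen, was from 10.3 to 24.4 CPM (median 13.5) and then at 74.4, 109.6 and 162 CPM (log2 fold change 2.96, SE 0.53, adjusted p = 0.000662).

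Sarcomere genes were abundant at both days, and few of them passed the test. Of 9 thick filament genes tested 3 rose and none fell (median 1.13), of 14 thin filament genes 1 rose (median 0.37), and of 24 Z-disc, titin and M-band genes 4 rose (median 0.65). MYH7, the slow beta myosin heavy chain, was from 11.9 to 47.4 CPM (median 24.2) at day 4.5 and at 54.4, 52.3 and 111 CPM at day 7.5 (log2 fold change 1.53, SE 0.40, adjusted p = 0.0411). MYL9, a regulatory light chain, was from 377 to 676 CPM (median 530.0) and then at 1144, 1169 and 1068 CPM (log2 fold change 1.13, SE 0.32, adjusted p = 0.0411). The third thick filament gene was MYH7B, a related heavy chain (log2 fold change 1.64, adjusted p = 0.044). All 3 day 7.5 libraries exceeded all 6 of day 4.5 for each of the 3 genes. These calls lay close to the threshold: each was lost in 7 or 8 of the 9 left-out fits (1 library less in each), with adjusted p up to 0.375, and without both R1 libraries of day 4.5 no thick filament gene was called. Under the block by line and R number 5 of the 9 rose.

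Other myosins and titin had no call. MYH6, the alpha heavy chain, was from 4602 to 8599.6 CPM at day 4.5 and at 9235, 9395 and 8556 CPM at day 7.5 (log2 fold change 0.36, 95% interval −0.48 to 1.21, adjusted p = 0.782). MYL7, the atrial light chain that the early ventricle also makes, was from 1693 to 5466 CPM (median 4325) and then at 10062, 8343 and 8856 CPM, with no overlap between the days, and yet missed the threshold (log2 fold change 1.19, SE 0.46, adjusted p = 0.184); with the replicate block it passed (adjusted p = 0.0279). MYL3, the ventricular essential light chain named after its values were seen, behaved alike (from 214 to 1574 CPM (median 1125), then 3370.2, 2759.5 and 2708 CPM, adjusted p = 0.137, and 0.0365 with the block). TTN had a log2 fold change of 0.65 with a 95% interval of −0.74 to 2.03, and TNNT2 one of 0.25 (−0.54 to 1.04).

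The calls in thin filaments and Z-discs were of genes for filament length, Z-disc links and turnover. LMOD2, a leiomodin that lengthens thin filaments, was from 14.3 to 39.6 CPM (median 20.5) and then at 82.1, 50.9 and 81.5 CPM (log2 fold change 1.55, SE 0.34, adjusted p = 0.00579). LDB3 (chromosome 10, 86668449 to 86736068), the Z-disc protein Cypher, was from 251 to 989 CPM (median 709) and then at 2468, 1951 and 1685 CPM (log2 fold change 1.65, SE 0.44, adjusted p = 0.0274). The line cl43_WT_UT was lowest at day 4.5 for LDB3, at 251 CPM, as it was for HSPB7, MYL7 and MYL9. MYOZ2 (a calcineurin-binding Z-disc protein), HSPB7 (a small heat shock protein of muscle) and TRIM63 (a muscle ubiquitin ligase) also rose, by 1.95, 1.66 and 1.40. Each of these calls was lost without WT_TU_R2 of day 7.5, among other libraries (adjusted p up to 0.0598 for LMOD2, 0.146 for LDB3 and 0.197 for MYOZ2). Without both R1 libraries of day 4.5 the Z-disc calls were FHL2, HSPB7 and TRIM63, and without the R1 libraries of both days FHL2. With the replicate block 3 thin filament genes rose, and 6 Z-disc genes rose and 1 fell.

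Among 18 genes of calcium handling 2 rose: SRL, a sarcoplasmic reticulum protein (from 8.57 to 38.7 CPM (median 31.3), then 98.5, 71.2 and 106 CPM, log2 fold change 1.78, adjusted p = 0.0301), and ASPH, whose locus encodes junctin (0.98, adjusted p = 0.0237). RYR2, the calcium release channel, had 0.52 (adjusted p = 0.663). Of 18 ion channel and pacemaking genes 3 rose and 1 fell. ATP1B1, a sodium pump subunit, was from 570.3 to 997 CPM (median 801) and then at 1458, 1417 and 1677 CPM (log2 fold change 0.96, adjusted p = 0.0146). GJA5, connexin 40 of fast-conducting myocardium, was at most 3.47 CPM at day 4.5 and at 6.67, 4.89 and 12.3 CPM at day 7.5. KCNIP2, an auxiliary subunit of the transient outward potassium channel, fell by 2.35 on the log2 scale, from 144 CPM in WT_R1 and a median of 39.3 at day 4.5 to 16.4, 7.68 and 9.05 CPM. Without both R1 libraries of day 4.5 only ASPH kept its call in these lists, and KCNQ1 joined the ion channels, and without the R1 libraries of both days neither list had a call. SRL, ASPH, ATP1B1, GJA5 and KCNIP2 each lost the call without WT_R1 and without WT_TU_R2 of day 7.5, among other libraries (adjusted p up to 0.282 for GJA5).

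Of 9 tested chamber and peptide hormone genes 3 rose and none fell. NPPA (chromosome 1, 11845709 to 11848345), the atrial natriuretic peptide of embryonic working myocardium, was from 0 to 169 CPM (median 26.3) and then at 206, 173 and 426 CPM (log2 fold change 2.51, SE 0.68, adjusted p = 0.0321). WT_TU_R1 of day 4.5, at 169 CPM, was close to WT_R2 of day 7.5, and the exons of NPPA overlap those of CLCN6 on the other strand. PRSS35, a secreted protease-like protein, was from 2.64 to 8.66 CPM (median 4.68) and then at 29.8, 55.8 and 41.4 CPM (log2 fold change 3.04, SE 0.49, adjusted p = 0.000134). CORIN, the protease that activates the natriuretic peptide, was from 3.96 to 36.3 CPM (median 8.10) and then at 54.4, 48.9 and 60.8 CPM (log2 fold change 2.09, SE 0.59, adjusted p = 0.0458). The PRSS35 call held in every fit, whereas those of NPPA and CORIN were lost in 7 and 8 of the 9 left-out fits (adjusted p up to 0.283 and 0.199); all 3 held without both R1 libraries of day 4.5.

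**Figure D2:**
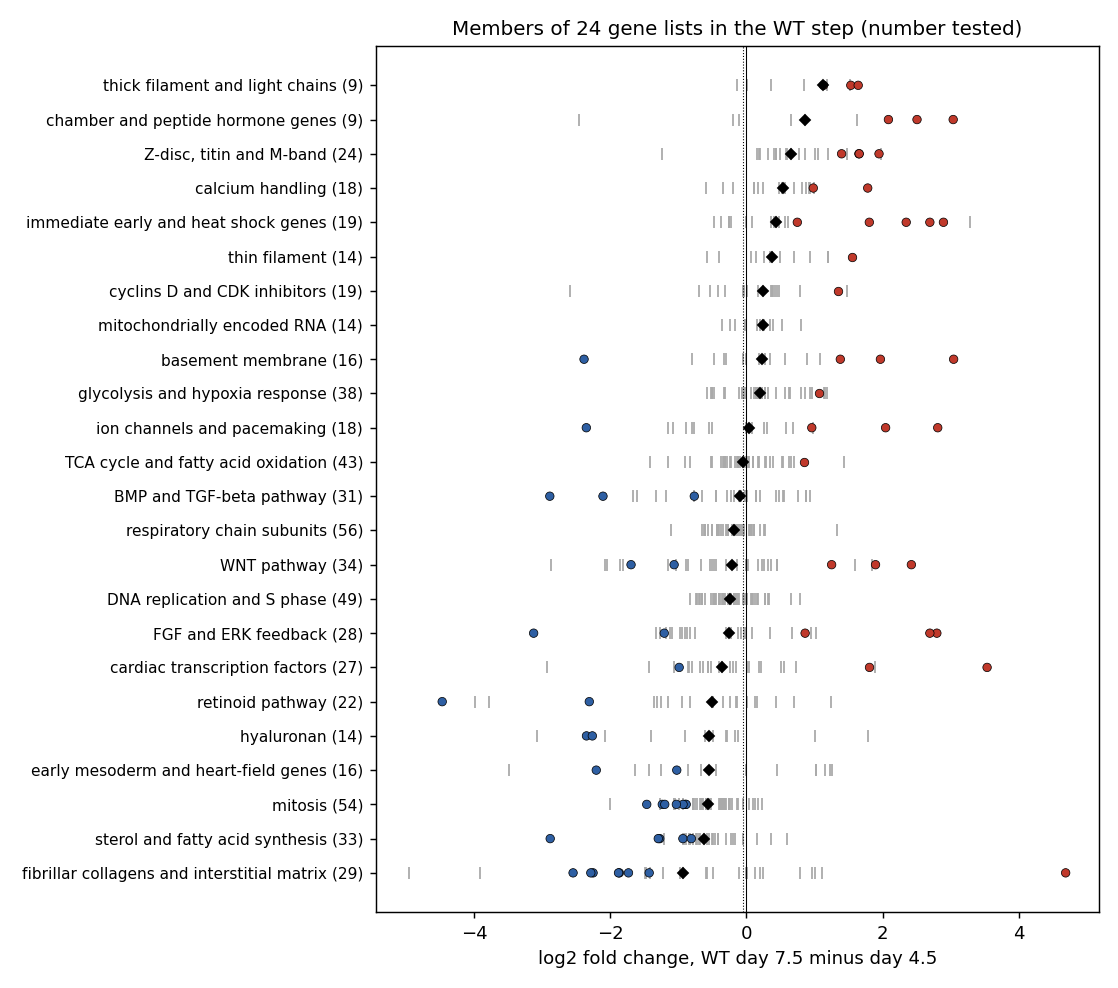
Log2 fold change, day 7.5 minus day 4.5, of the tested members of 24 gene lists, 1 row for each list. Coloured marks passed the test at an adjusted p under 0.05, grey ticks did not, the diamond is the list's median and the dotted line the median of all genes (−0.05); thick filament genes have the highest median (1.13) and interstitial matrix genes the lowest (−0.93).

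Progenitor and signalling genes were among the strongest falls. LIN28A (chromosome 1, 26410778 to 26429722), an RNA-binding protein of stem cells and early embryos, was from 218 to 336 CPM (median 283) at day 4.5 and at 46.7, 41.9 and 38.8 CPM at day 7.5 (log2 fold change −2.68, SE 0.32, adjusted p = 4.00e-07). DPPA4, a chromatin factor of pluripotent cells, was from 12.2 to 42.2 CPM (median 32.8) and then at 1.54, 4.89 and 7.11 CPM (log2 fold change −2.67, SE 0.44, adjusted p = 0.000152). DNMT3B, the de novo DNA methyltransferase of the early embryo, was from 63 to 121 CPM (median 80.7) and then at 23.6, 36.3 and 32.3 CPM (log2 fold change −1.47, SE 0.20, adjusted p = 7.38e-06). The groups did not overlap for any of the 3. They were the called genes among 13 tested pluripotency markers (median −1.15, 2 positive and 9 negative). The summed level of the 15 markers on the list went from between 527.8 and 680.9 CPM at day 4.5 to between 154.5 and 189.8 CPM. Of the defining factors NANOG had 0 counts at both days. POU5F1 had 13 counts in the 6 libraries of day 4.5 and 7 in the 3 of day 7.5. Its highest library was at 1.87 CPM at day 4.5 and 2.57 CPM at day 7.5, and that of TDGF1 at 7.50 and 12.3 CPM, so these did not fall in this measure. Of the early mesoderm genes 2 receptors fell as well. APLNR, the apelin receptor, was from 37.8 to 77.1 CPM (median 61.9) and then at 9.75, 15.4 and 12.9 CPM (log2 fold change −2.21, SE 0.41, adjusted p = 0.000863). PDGFRA had −1.02 (adjusted p = 0.032, up to 0.285 when WT_R1 or WT_TU_R1 of day 4.5 or WT_R2 or WT_TU_R2 of day 7.5 was left out). They were the only calls among 16 tested genes of the list, of which 6 were positive and 9 negative. The receptor KDR did not fall (0.44, adjusted p = 0.722). With the replicate block 2 genes of the list rose, KDR among them.

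In the retinoid pathway 2 of 22 genes fell and none rose, and both remove or store the ligand. CYP26A1, which degrades retinoic acid, was from 6.89 to 29.9 CPM (median 9.81) at day 4.5, with 208 counts in all, and at 1.03, 0.698 and 0 CPM at day 7.5, with 3 counts in all. The ratio of the pooled CPM, day 4.5 to day 7.5, was 27.6 (95% interval for counting error 9.46 to 134), and the adjusted p was 0.00395, or 0.0546 without day 7.5 WT_TU_R2. DHRS3 (chromosome 1, 12567910 to 12617731), a retinal reductase that also responds to retinoic acid, was from 76.4 to 112 CPM (median 92.2) and then at 32.3, 14 and 7.76 CPM (log2 fold change −2.31, SE 0.43, adjusted p = 0.000892). Both genes are textbook targets of the retinoic acid receptor, so the site in the CYP26A1 promoter is shown. Whether retinoic acid had a part in these falls was not tested. RARB, a receptor gene with the same kind of site, was named after its values were seen: it had −1.32 (adjusted p = 0.115), and 0.02 without both R1 libraries of day 4.5. In the blocked fit 4 of the 22 fell, and without the R1 libraries of both days DHRS3 alone.

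The sequence comes from RefSeq (GRCh38.p14), chr10:93073797-93073826, plus strand, and its capitals mark the pair of receptor half-sites, spaced by 5 bases and read on the opposite strand.
CYP26A1: taaagaTGAACTttgggTGAACTaattgtc
The search took pairs of half-sites on both strands in the 250 bases before each start. A half-site was AGTTCA or AGGTCA, and the first base of each could also be G. Such a pair was in 26 of 34943 windows (0.0744%), in that of CYP26A1 (its first base 90 bases before the start) and not in that of DHRS3.

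BMP4 (chromosome 14, 53949736 to 53958761), the ligand that patterns heart mesoderm, was from 71 to 244 CPM (median 105) at day 4.5 and at 14.9, 18.1 and 18.8 CPM at day 7.5 (log2 fold change −2.89, SE 0.42, adjusted p = 2.98e-05). Its highest day 4.5 values were those of cl43_WT_UT and TNT2 (244 and 195 CPM), and all 6 exceeded all 3 of day 7.5. FST, an antagonist that binds activins, was from 66.4 to 164 CPM (median 108) and then at 35.9, 25.1 and 11 CPM (log2 fold change −2.11, SE 0.42, adjusted p = 0.00212, and 0.0546 without day 7.5 WT_TU_R2). BMPER, a BMP-binding secreted protein, was the third of 31 tested genes of the pathway that fell (−0.77, adjusted p = 0.0314, lost in 5 of 9 left-out fits with p up to 0.227). No gene of the list rose, although 1 did with the replicate block. The list's median was −0.09, with 12 positive and 19 negative, close to the −0.05 of all genes.

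FGF and ERK genes split. FGF18, a ligand, was from 1.32 to 2.89 CPM and then at 11.8, 14 and 22 CPM (log2 fold change 2.80, SE 0.63, adjusted p = 0.00664). ETV4 and ETV5, transcription factors that FGF signalling induces, fell: ETV4 from 5.04 to 11.6 CPM (median 6.86) to 0, 0 and 2.59 CPM (adjusted p = 0.00451) and ETV5 from 34 to 70.5 CPM (median 61.3) to 29.3, 14 and 30.4 CPM (adjusted p = 0.011). The related ETV1, a factor of fast-conducting myocardium, rose by 0.86 (from 79 to 120.2 CPM (median 96.8), then 169, 158 and 190.1 CPM, adjusted p = 0.0194). The call of ETV1 was lost without any 1 of the day 7.5 libraries (adjusted p up to 0.144), that of ETV4 without WT_R1 or WT_R2 (up to 0.0749), that of ETV5 without WT_R2 (0.163) and that of FGF18 without WT_TU_R2 (0.0855). DUSP6, an ERK phosphatase and feedback gene, had −1.27 (adjusted p = 0.0834, and 0.00345 with the replicate block). Of 28 tested 3 rose, EGR1 among them, and 2 fell; with the block 5 rose and 3 fell.

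Of 34 WNT pathway genes 3 rose and 2 fell. APCDD1, a membrane inhibitor of WNT signalling, was from 0 to 17.3 CPM (median 4.15) and then at 25.7, 27.2 and 51.1 CPM (log2 fold change 2.42, SE 0.54, adjusted p = 0.00591). WNT5B, a ligand, was at 1.98 CPM in cl43_WT_UT and up to 42.5 CPM in the other day 4.5 libraries, and then at 88.8, 75.4 and 118 CPM (log2 fold change 1.90, adjusted p = 0.0353). DKK3 rose by 1.25, and FZD7, a receptor, and TCF7, a nuclear effector, changed by −1.70 and −1.06. WNT5B, DKK3, FZD7 and TCF7 were each lost in 5 to 7 of the 9 left-out fits (adjusted p up to 0.299 for DKK3), and APCDD1 without day 7.5 WT_TU_R2 (0.109).

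Fibronectin, fibulin and collagen genes of the interstitial matrix fell. FN1 (chromosome 2, 215360440 to 215436172), fibronectin, was from 1728 to 5797 CPM (median 3589) at day 4.5 and at 723, 625.3 and 433 CPM at day 7.5 (log2 fold change −2.55, SE 0.32, adjusted p = 2.14e-06). FBLN1, fibulin 1, was from 53.4 to 191 CPM (median 76.3) and then at 18, 22.3 and 18.8 CPM (log2 fold change −2.29, SE 0.31, adjusted p = 6.38e-06). COL1A1 and COL1A2, the chains of type I collagen, had −1.87 and −2.25 (adjusted p = 0.00524 and 0.0022). TNC (tenascin C) and the type VI collagen chains COL6A1 and COL6A2 completed the 7 of 29 interstitial matrix genes that fell (−1.88, −1.43 and −1.73). Both type VI chains were highest in WT_R1 of day 4.5 (2021 and 412 CPM) and lost their calls without it, or without any day 7.5 library (adjusted p up to 0.201 and 0.191). COL1A1 lost its call without day 7.5 WT_R2 (adjusted p = 0.0524) and TNC without WT_TU_R2 (0.113). The list's median was −0.93, the lowest of the 24.

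The only interstitial gene that rose was POSTN, periostin, with 2 counts in the 6 libraries of day 4.5 and 28 in the 3 of day 7.5, a ratio of pooled CPM of 35.1 (95% interval 9.72 to 290.0, adjusted p = 0.0131, and 0.152 without day 7.5 WT_TU_R2). Without both R1 libraries of day 4.5 the list had 2 rises and 8 falls, with the replicate block 3 and 8, and without the R1 libraries of both days 0 and 3 (FBLN1, FN1 and TNC).

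Laminin alpha chain genes moved in opposite directions. LAMA1, the early embryonic alpha chain, was from 87.8 to 208 CPM (median 124) at day 4.5 and at 24.6, 33.5 and 15.5 CPM at day 7.5 (log2 fold change −2.39, SE 0.41, adjusted p = 0.00032). LAMA4, an alpha chain of heart and vessels, was from 38.9 to 101 CPM (median 65.5) and then at 225, 226 and 321 CPM (log2 fold change 1.97, SE 0.37, adjusted p = 0.000892). COL4A2, a type IV collagen chain, was from 54.5 to 86.1 and then at 163, 215 and 186 CPM (log2 fold change 1.38, SE 0.21, adjusted p = 7.50e-05). With LAMA2 these were 3 rises and 1 fall among 16 basement membrane genes, all 4 called in every alternative run. In the blocked fit 5 rose.

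Hyaluronan is the polymer this study perturbed. HAS2, the gene of its synthase, was from 149.6 to 482 CPM (median 369) at day 4.5 and at 187, 264 and 363 CPM at day 7.5, with overlapping ranges (log2 fold change −0.29, 95% interval −0.96 to 0.39, adjusted p = 0.785). HAPLN1, the link protein that fastens proteoglycans to hyaluronan, was from 161 to 649 CPM (median 316) and then at 30.8, 57.9 and 105 CPM (log2 fold change −2.35, SE 0.42, adjusted p = 0.000546). HAPLN3 also fell (−2.26, adjusted p = 0.0277, up to 0.19 in left-out fits). VCAN, versican, which binds hyaluronan, was from 918 to 2898 CPM (median 2093) and then at 2766, 3707 and 4743 CPM, with a log2 fold change of 1.01 (adjusted p = 0.111, and 0.00189 with the replicate block). Of 14 tested hyaluronan genes 2 fell and none rose, and with the block 1 rose.

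Immediate early genes, which cells switch on within minutes of a stimulus, rose in the wild type. EGR1 (chromosome 5, 138465490 to 138469315) was from 17.9 to 61.9 CPM (median 24.9) at day 4.5 and at 123, 229.6 and 229.5 CPM at day 7.5 (log2 fold change 2.70, SE 0.43, adjusted p = 0.000126). FOS was from 1.16 to 8.64 and then at 14.4, 25.1 and 18.1 CPM (log2 fold change 2.35, SE 0.50, adjusted p = 0.00424), and JUNB from 2.64 to 12.6 and then at 18.5, 29.3 and 22 CPM (log2 fold change 1.81, SE 0.46, adjusted p = 0.0209). In each gene all 3 libraries of day 7.5 were above all 6 of day 4.5. FOSB and IER2 rose by 2.90 and 0.75, making 5 of 19 tested members of the list, with none lower, also without both R1 libraries of day 4.5. Left-out fits kept EGR1, and lost FOS and FOSB without day 7.5 WT_R2 (adjusted p = 0.05 and 0.214), JUNB in 3 and IER2 in 6 of 9. Exons of JUNB and IER2 overlap exons on the other strand, FOSB lies within ERCC1, and whether counting used strand is not given in the sources used here.

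EGR1 is the textbook target of serum response factor, which binds CArG boxes, so its promoter is shown, chr5:138465229-138465478 on GRCh38.p14 (RefSeq), plus strand, the 250 bases before the start, with CArG boxes in capitals.
EGR1: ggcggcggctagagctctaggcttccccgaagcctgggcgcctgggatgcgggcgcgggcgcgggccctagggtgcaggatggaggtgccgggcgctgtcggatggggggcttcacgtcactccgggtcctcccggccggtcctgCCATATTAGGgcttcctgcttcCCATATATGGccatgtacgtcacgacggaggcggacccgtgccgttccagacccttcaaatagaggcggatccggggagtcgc
Both boxes lie close together, 105 and 83 bases before the start by their first base. A CArG box on either strand was in 1.16% of 34943 such windows, and in 1.44% of 27305 genes counted over their windows. It was found in the windows of EGR1 alone among the 5 called immediate early genes, and of LDB3 alone among the 5 called sarcomere genes that have a window. Sites farther upstream were not searched, so a gene without a box here may still have one elsewhere.

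In the other cardioids EGR1, FOS and JUNB did not pass the test as higher. In untreated libraries EGR1 was at 53.2, 32 and 16.7 CPM at day 4.5 and 128, 27.4 and 8.16 CPM at day 7.5 in lines TNNI1, WT and TNNT2 (log2 fold change 0.75, SE 0.83, adjusted p = 0.606); 1 line rose and the others fell. In KO libraries its mean was 55.3 ± 23.8 CPM (SD, n = 6) at day 4.5 and 40.5 ± 24.8 CPM (n = 3) at day 7.5. The KO step minus the wild-type step was −3.08 (SE 0.66, edgeR adjusted p = 0.026), while the difference of 1.98 between the wild-type and untreated steps missed the threshold (SE 0.84, adjusted p = 0.556). FOS and JUNB had 0.25 and −1.22 in untreated and −0.43 and −1.15 in KO libraries, and no difference of steps passed for either (adjusted p = 0.274 and 0.108 against KO, 0.59 and 0.355 against untreated).

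**Figure D3:**
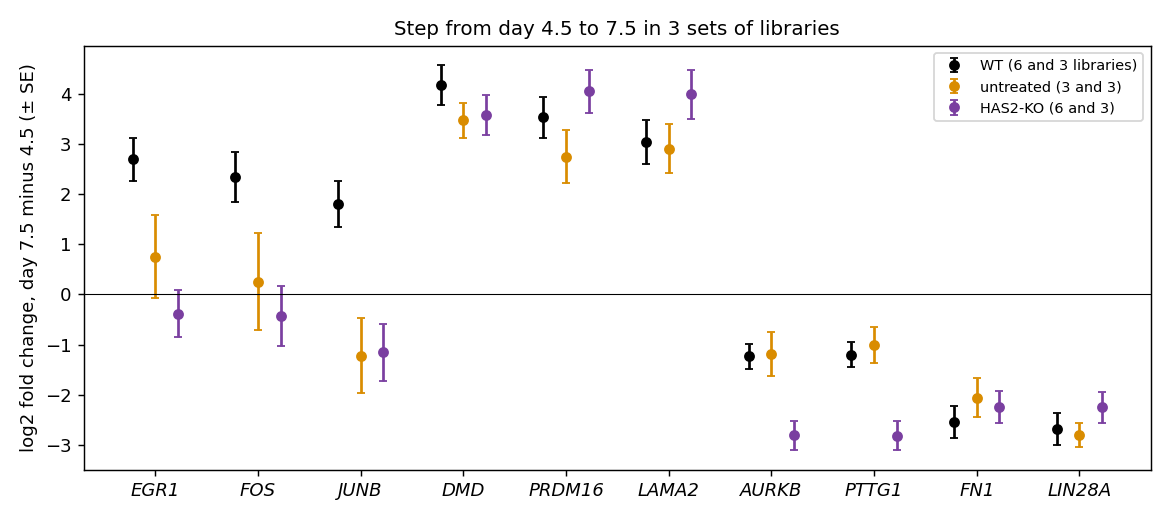
Log2 fold change from day 4.5 to day 7.5 with its SE for 10 genes in WT, untreated and HAS2-KO cardioids, WT and KO from the fit of the 41 libraries of the genotype arm and untreated from that of the 24 of the enzyme arm. DMD, PRDM16 and LAMA2 rise and FN1 and LIN28A fall in all 3 sets, whereas EGR1 is at 2.70 in WT, 0.75 in untreated and −0.38 in KO.

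Division genes fell in part. Of 54 mitosis genes 7 fell and none rose, with a median of −0.56 and 49 of 54 negative; none of 49 genes of DNA replication passed (median −0.24, 36 negative), although 1 did with the replicate block. AURKB, a kinase of chromosome segregation, was from 45 to 62.6 CPM (median 60) at day 4.5 and at 27.7, 18.8 and 23.9 CPM at day 7.5 (log2 fold change −1.24, SE 0.25, adjusted p = 0.00277). PTTG1, securin, was from 108 to 136 and then at 45.2, 52.3 and 56.3 CPM (log2 fold change −1.20, SE 0.26, adjusted p = 0.00424). CDC25C, CDCA8, CDK1, BIRC5 and KIF22 fell by 1.47, 1.03, 0.90, 0.93 and 0.89 on the log2 scale. These are modest changes: AURKB and PTTG1 held in every left-out fit, and the other 5 were lost in 2 to 6 of the 9 (adjusted p up to 0.234).

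The R1 libraries of day 4.5 were low for part of this list. TOP2A was at 191 and 223 CPM in them, from 750.2 to 1125 CPM in the other 4 and at 310.5, 414 and 510.2 CPM at day 7.5 (log2 fold change −0.63, adjusted p = 0.633). CENPF had the same layout (86.8 and 83.5, then from 483 to 609.7, and 174, 200.3 and 213 CPM). Without the R1 pair 8 mitosis genes fell, with the replicate block 11, and without the R1 libraries of both days 3 (AURKB, BIRC5 and CDCA8). CDKN1A, the p21 inhibitor, was the 1 gene called among 19 cyclin D and CDK inhibitor genes (from 7.81 to 18.2 CPM (median 13.9), then 30.3, 27.2 and 43.3 CPM, log2 fold change 1.34, adjusted p = 0.0324, up to 0.269 in left-out fits), while CCND2, cyclin D2, had 0.17 (adjusted p = 0.784).

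Promoters of mitotic genes often carry the cell cycle homology region, TTTGAA, downstream of CCAAT boxes, and the called genes with that hexamer in the 250 bases before the start are shown, with it in capitals (RefSeq, GRCh38.p14, written along the gene's strand). CDC25C is at chr5:138331817-138331846 (minus strand), CDCA8 at chr1:37692481-37692510 and CDK1 at chr10:60778158-60778187, chr10:60778397-60778426 and chr10:60778448-60778477 (plus strand).
CDC25C: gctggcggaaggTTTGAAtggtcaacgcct
CDCA8: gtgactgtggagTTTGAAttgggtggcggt
CDK1, site at 161 bases: gagtataataaaTTTGAActgtgccaatgc
CDK1, site at 69 bases: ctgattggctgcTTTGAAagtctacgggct
CDK1, site at 13 bases: ccctttagcgcggtgagTTTGAAactgctc
The hexamer begins 30 bases before the start in CDC25C and 23 in CDCA8. CDK1 has 2 annotated starts, and its sites begin 161 bases before the upstream start and 69 and 13 bases before the downstream start. Of the 7 called genes 6 have a window: TTTGAA was in 3 of them on either strand, and not in those of AURKB, KIF22 and PTTG1, and CCAAT was in all 6. Among all 34943 windows TTTGAA was in 13.4% and CCAAT in 32.0%. Counted by gene, as for the called genes, the shares were 16.1% and 37.0% of 27305 genes. Where CCAAT lay relative to TTTGAA was not tested.

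Among the metabolic lists, sterol and fatty acid synthesis had the most calls. Of 33 sterol and fatty acid synthesis genes 5 fell and none rose (median −0.62, 30 negative). FASN, fatty acid synthase, was from 585 to 933 CPM (median 780.0) at day 4.5 and at 304, 289 and 336 CPM at day 7.5 (log2 fold change −1.30, SE 0.29, adjusted p = 0.00672). MVD and FDFT1, enzymes of cholesterol synthesis, fell by 0.93 and 0.81 on the log2 scale. FASN lost its call without day 7.5 WT_R2 (adjusted p = 0.0613) and MVD and FDFT1 theirs without that library or, respectively, WT_R1 and WT_TU_R2 (up to 0.142 and 0.0755). Of the 33, 13 fell with the replicate block, 4 without both R1 libraries of day 4.5 and 0 without the R1 libraries of both days. In the untreated step 19 of the same 33 fell and none rose.

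Of 56 nuclear genes for respiratory chain subunits none passed in either direction (median −0.19), and none of 14 mitochondrially encoded RNAs (median 0.24). In the blocked fit 1 subunit gene fell. Of 43 genes of the citric acid cycle and fatty acid oxidation 1 rose, MLYCD, malonyl-CoA decarboxylase (log2 fold change 0.85, adjusted p = 0.0367, lost in 7 of 9 left-out fits). Of 38 glycolysis and hypoxia genes 1 rose, VEGFA, the angiogenic ligand (from 84.4 to 178 CPM, then 237, 257 and 279 CPM, log2 fold change 1.06, SE 0.23, adjusted p = 0.00579). Without both R1 libraries of day 4.5 SLC2A1 and BNIP3 joined VEGFA, which lost its call without WT_TU_R2 of day 7.5 (adjusted p = 0.0569).

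Markers of other cells were read in the same libraries. Where counts are given here and in the next paragraphs, they are pooled over 6 libraries at day 4.5 and 3 at day 7.5. They are not scaled for depth, so an equal or lower count at day 7.5 need not be a fall. Endothelial markers were low: of 20, 8 were tested and none passed, CDH5 had 5 counts in the 6 libraries of day 4.5 and 0 in the 3 of day 7.5, PECAM1 13 and 10, and the summed level was 150.6 to 505.6 CPM and then 181.2 to 288.2. With the replicate block FLT1 fell and KDR, which early mesoderm also carries, rose (adjusted p = 0.0184 and 0.031). Of 13 blood markers PTPRC had 0 counts at both days and the sum was at most 5.776 CPM. Epicardial WT1 and TBX18 went from 15 and 9 counts to 0. KRT19, on the epicardial and epithelial lists, fell (−1.05, adjusted p = 0.0301) with the other simple keratins KRT18 (from 456 to 818 CPM (median 739), then 241, 221 and 194 CPM, log2 fold change −1.64, SE 0.26, adjusted p = 0.000126) and KRT8 (−1.22, adjusted p = 0.032). These 3 were the only called genes of 7 tested epithelial markers. KRT18 held in every left-out fit, KRT8 was lost in 5 and KRT19 in 4 of 9 (adjusted p up to 0.202 and 0.163), and without the R1 libraries of both days KRT18 alone was called; KRT8 and KRT18 overlap on opposite strands.

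Of 17 tested genes for liver-type secreted proteins 3 rose and 2 fell. AFP (chromosome 4, 73431138 to 73456174), alpha-fetoprotein, was from 0 to 1.95 CPM at day 4.5 and at 21.6, 13.3 and 40.7 CPM at day 7.5 (log2 fold change 5.10, SE 0.74, adjusted p = 4.34e-05). SERPINA1, alpha-1 antitrypsin, had 2 counts in all at day 4.5 and 40 at day 7.5, a ratio of pooled CPM of 50.2 (95% interval 13.9 to 414, adjusted p = 0.00255). FGB, a fibrinogen chain, rose by 2.97 (adjusted p = 0.0222, up to 0.235 in left-out fits). In all 3 genes WT_TU_R2 was the highest library. Those that fell were FN1 and APOC1 (−2.43, adjusted p = 0.000284). The defining liver gene ALB had 3 counts at each day (at most 0.720 CPM in a library of day 4.5 and 1.94 CPM in 1 of day 7.5). The summed level of the list fell with FN1, from between 2026 and 6015 CPM to between 876.1 and 962.3.

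Of 16 endoderm markers, FOXA3 went from 32 counts to 0, at least 4.25-fold lower by a floor of 3 counts over the day 7.5 group (adjusted p = 0.0374, lost without TNT2 of day 4.5 or any day 7.5 library, up to 0.162), and SOX17 from 21 to 0. PROX1, on that list but also a gene of heart muscle, was from 23.8 to 32.3 CPM (median 29.3) and then at 88.8, 85.1 and 98.3 CPM (log2 fold change 1.67, SE 0.35, adjusted p = 0.00288). Of 8 tested neural markers SOX3 and NCAM1, the latter also made by heart muscle, rose (2.52 and 1.34, adjusted p = 0.0455 and 0.0214, lost in 7 and 4 of 9 left-out fits with p up to 0.236 and 0.114) and OTX2 fell (from 12.7 to 20.4 CPM (median 18.1), then 6.67, 4.19 and 1.94 CPM); SOX1, PAX6 and TUBB3 had 0 counts. NPY, a neuropeptide gene, was from 18.5 to 47.9 CPM (median 31.3) and then at 1.03, 2.79 and 1.94 CPM (log2 fold change −4.08, SE 0.55, adjusted p = 6.38e-06). Of 9 fibroblast markers 1 rose and 3 fell, all named above (POSTN, then PDGFRA, COL1A1 and FBLN1), and of 14 smooth muscle markers SYNPO2 alone rose (2.28, adjusted p = 0.00836, and 0.0706 without day 7.5 WT_TU_R2). The part of other cell types in the results above was not tested.

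**Figure D4:**
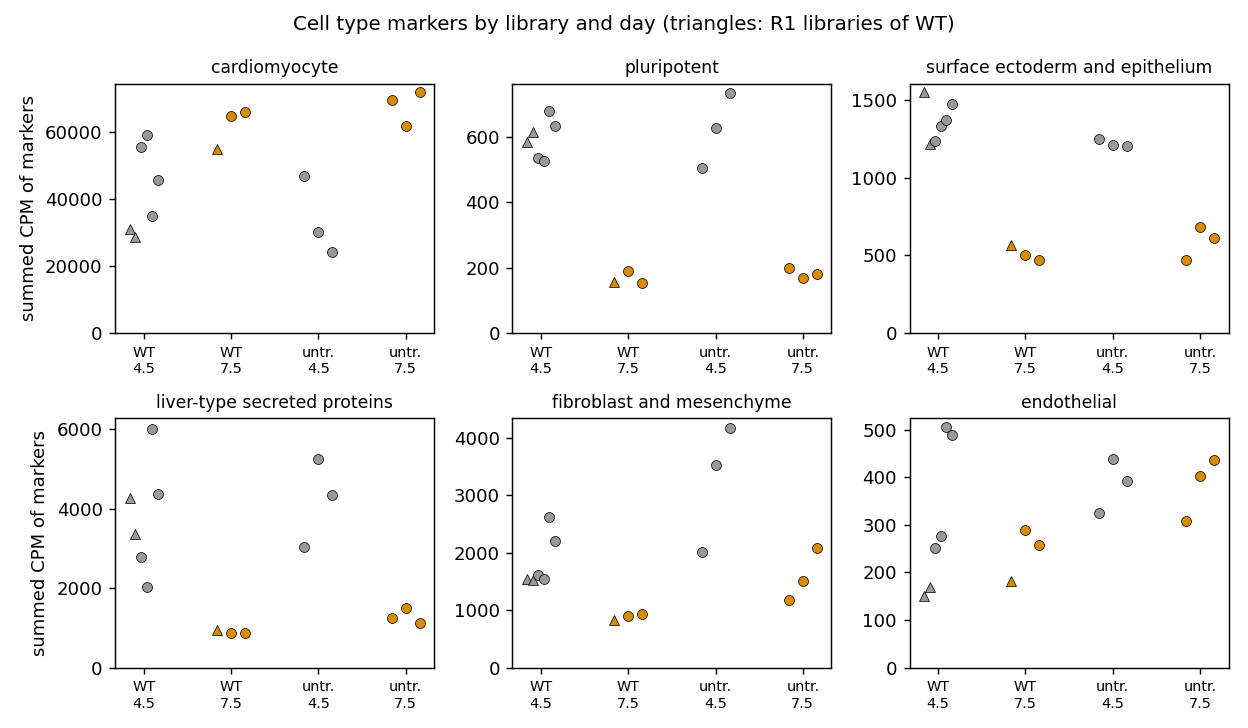
Summed CPM of 6 marker lists in each WT and untreated library at day 4.5 and day 7.5, on a linear axis, with 1 point per library. The cardiomyocyte sum in WT, in which TTN has the most counts, is 28820 to 59080 CPM at day 4.5 and 55120 to 65920 at day 7.5, and the pluripotent sum falls to between 154.5 and 189.8 CPM.

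The untreated cardioids, with no library in common, gave the same days again. Their step had 814 calls among 12748 genes (6.39%), 440 higher and 374 lower. Of the 173 genes that rose in the wild type 165 were tested there; 157 had the same sign (95.15%) and 85 were also called, and of the 199 that fell 186 of 197 had the same sign (94.42%) and 71 were called. No gene was called in the opposite direction, and 63.6% of all 12566 genes tested in both had the same sign. The 156 shared calls are 41.9% of those of the wild type and 19.2% of those of the untreated step.

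DMD and LIN28A had values close to those of the wild type. DMD was at 24.6, 12.4 and 21.6 CPM at day 4.5 and 209, 169.8 and 231 CPM at day 7.5 (log2 fold change 3.48, adjusted p = 8.67e-07), and LIN28A at 197, 246 and 301 and then 47.3, 26.2 and 26 CPM (−2.80, adjusted p = 1.59e-07). BMP4 did not separate there: 72.3, 137 and 149.5 CPM and then 13.4, 28.1 and 82.3 CPM (−1.38, adjusted p = 0.224), with line TNNT2 staying high. No gene of 14047 differed between the steps (edgeR, 0%), with 1186 at an unadjusted p under 0.05. Leaving out 1 library gave from 0 to 74 such genes.

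**Figure D5:**
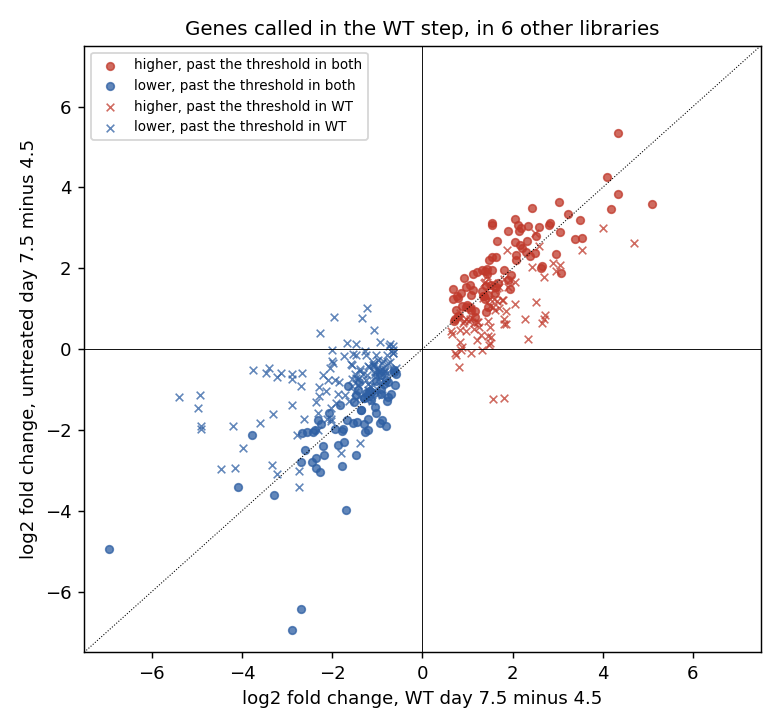
Log2 fold change of the genes called in the wild-type step (x axis) against that in the untreated step (y axis), 1 point per gene tested in both. Most points lie in the quadrants of equal sign (157 of 165 higher, 186 of 197 lower).

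The HAS2-KO step had 858 calls (6.22%). Of the genes called in the wild type 163 of 173 and 193 of 199 had the same sign there, and 114 and 104 were also called, 58.6% of the wild-type calls and 25.4% of the KO calls. The share of equal signs over all genes tested was not computed for KO, so the agreement in sign has no background to be read against. The difference of steps, KO minus WT, passed in 22 of 13797 genes (0.159%), with 653 at an unadjusted p under 0.05, and in 64 with the replicate block. Clone cl4 gave several KO libraries of each day, and cl46 and cl51 had none at day 7.5. A trait of cl4 therefore cannot be fully told apart from an effect of the knockout. Of these 22 genes, 19 were lower in KO. The mitosis list holds 7 of the 22, among them PTTG1 and BIRC5, which fell further in KO (−2.82 against −1.20, and −2.73 against −0.93; difference −1.62 and −1.80, adjusted p = 0.048 and 0.026), and the most significant gene was CCNA2, cyclin A2 (−3.03 in KO and −0.69 in WT, difference −2.34, adjusted p = 0.000345). CCND2 fell in KO and not in WT (−1.56 against 0.17; difference −1.73, adjusted p = 0.00118). IGFBP5 had opposite signs, rising in the wild type and with −1.03 in KO (adjusted p = 0.401; difference −3.99, SE 0.82, adjusted p = 0.0231).

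Set beside the step before, several genes had turned. FN1 rose from day 2.5, where its mean was 1003 ± 329.7 CPM (SD, n = 6), to 3566 ± 1420.3 at day 4.5 (n = 6; log2 fold change 1.86, adjusted p = 4.08e-08), before falling to 594 ± 147 CPM (n = 3). NPY likewise was at 9.28, 32.7 and 1.92 CPM on the 3 days. LIN28A and BMP4 fell over both steps, from 709 and 626 CPM at day 2.5 to 278 and 132 CPM at day 4.5. MYL7 went from 91.8 to 4028 CPM in the first step (5.50, adjusted p = 2.48e-12) and to 9087 CPM in the second, whereas DMD was at 5.74, 9.90 and 169.7 CPM, so that most of its rise came after day 4.5. Both steps use the day 4.5 libraries.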

How the data were processed

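Libraries were made with QuantSeq FWD, a 3′ mRNA kit whose reads start near the end of polyadenylated transcripts. The authors deposited whole-number read counts per Ensembl gene, made with featureCounts (Subread 1.6.2) on hg38/GRCh38 per the submitters' processing notes; aligner, annotation release, strand setting and multi-mapping are not given in the sources used here. A further 4 columns matched no sample listed here and were not used. All 58735 IDs occur in GENCODE 29, which gave positions, and 58207 have a symbol.

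Counts were filtered with filterByExpr (minimum count 10), scaled by TMM and fitted in edgeR 4.0.16 (R 4.3.3), with robust quasi-likelihood dispersion and 1 mean for each of 8 groups over the 41 libraries of the genotype arm; the untreated step used the 24 libraries of the enzyme arm and its comparison with the wild-type step all 65. Tests were two-sided F-tests with Benjamini-Hochberg adjustment over all genes and a threshold of 0.05. SE is the log2 fold change divided by the square root of F. CPM gives a gene's counts in every 1e+06 of its library, so the smallest totals set the precision; a floor of 3 counts over the day 7.5 group is 0.609 CPM, and intervals and floors cover counting error only, since reads are not independent molecules. In simulated data with this layout (13604 genes), 78% of genes changed by 2 on the log2 scale and 21% of those changed by 1 were recovered, with 4 unchanged genes among 103 calls.

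Line and R number pair libraries across days: the deviations of WT_R1, WT_R2 and WT_TU_R2 from their group means correlated between the days (r = 0.367, 0.171 and 0.163), as did those of the untreated lines (0.225, 0.179 and 0.109). Alternatives covered scaling, filters, tools (DESeq2 1.42.0, limma 3.58.1), the block and left-out libraries. Named genes were the 14 highest and 14 lowest log2 fold changes among called genes with at least 10 CPM in either group and the same sign in all 3 pairs, the called members of each of 24 gene lists and 12 marker lists (up to 4 in each direction), their 2 most abundant members, and HAS2; some are not reported here. Other genes in the text, among them BIRC5, CCNA2, IGFBP5 and KIF22, lay outside these rules, and counts of named genes include them. The comparison, members, lists and rules were chosen with earlier results of these data known.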

Additional observations from a re-analysis of the deposited data

Results flagged for a closer look

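In 13 of 144 genes checked, 1 of the 6 day 4.5 libraries stood apart from the other 5 by Dixon's criterion. For normally distributed values chance flags about 1 in 20 such groups. The criterion was applied to CPM, which are skewed at low counts, and many of the genes were named for a call. The 13 can therefore not be set against that rate. WT_TU_R1 was the highest library for EGR1 (61.9 CPM), FOS (8.64), NPPA (169.5), CORIN (36.3), TMEM255A (7.20), WFDC2 (28.8) and SERPINA1 (0.720). WT_R1 was the highest for KCNIP2 (143.7 CPM) and COL6A2 (412.3). TNT2 was the highest for FOXA3 (8.09 CPM) and GJA5 (3.47), cl43_WT_UT for PLAT, the tissue plasminogen activator gene (128.5), and WT_TU_R2 for DMD (26.3). The causes were not tested.

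The step from day 4.5 to day 7.5 differed between KO and wild-type cardioids, by an edgeR test of the difference, in 6 of the genes in the text. Of these CCNA2, BIRC5 and IGFBP5 lay outside the rule for named genes, and CCNA2 was picked for its result in this test. The differences, KO minus WT, were −3.99 for IGFBP5, −3.08 for EGR1, −2.34 for CCNA2, −1.80 for BIRC5, −1.73 for CCND2 and −1.62 for PTTG1 on the log2 scale.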

How the results depend on the processing

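The count of genes in the wild-type step (372) moved by over 1.5 times to 222 with no filter, 192 with only the 9 libraries, 752 with the replicate block over 41 libraries, 157 with the block over only the 3 pairs, 852 with R number as a term, 242 without the 2 day 4.5 libraries that have no R number, 107 against a fold of at least 1.5, 1099 with limma-voom and 193 without the R1 libraries of both days; DESeq2 gave 529. Leaving out 1 library gave 138 to 382 genes. The untreated count (814) was 1279 with no filter and 276 to 1957 in left-out fits, the difference between wild-type and untreated steps (0) was 47 with no filter and 0 to 74, and that between KO and WT (22) was 64 with the replicate block and 9 to 28. NKX2-5 reversed with limma-voom (0.24), without both day 4.5 R1 libraries (0.56) and without the R1 libraries of both days (0.28), and GATA4 without the former pair (0.064). No named call changed sign. Of 111 named called genes 43 kept the call in all 9 left-out fits, 83 without both day 4.5 R1 libraries and 55 without the R1 libraries of both days. With the replicate block PLAT lost its call (adjusted p = 0.0653), as did KIF22 (0.0692). The causes were not tested. At these depths a change of 1 on the log2 scale was seldom recovered.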
